A study of Mus musculus with 9 samples.

Results

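The genes of DNA replication and of the passage from G1 into S phase were read across haematopoietic stem cells (HSCs), the cells that give rise to all blood lineages, from young mice, old mice and old mice given a β3-adrenergic agonist. The members were chosen by symbol from a list of 51 genes, of which 49 had a row among the 46626 genes of the deposited table. Expression of Cdt1 and Gins2 was not analysed here. Of the 49, 48 reached 1 RPKM (reads per kilobase of transcript per 1000000 reads) in at least 3 libraries and were tested among 13516 genes. Prim2, a primase subunit, stayed below that level, at 0.0005 to 0.733 RPKM. RNA came from about 2000 sorted HSCs of C57BL/6 bone marrow per library, with 3 libraries in each of 3 groups. Saline young mice were 2 months old and saline old mice were 15 to 20 months old, both with osmotic pumps that delivered saline. Mice of the group BRL37344 old were of the same old age and received BRL37344, a β3-adrenergic receptor agonist, at 2.4 mg per kg per day. Every group carried pumps for 12 weeks, with a further pump after 6 weeks. The young age of 2 months is shorter than those 12 weeks, so it cannot be the age at the sort. Whether the replicates of a group were different mice is not stated in the labels, and a p-value here reflects only how far these libraries spread, which may be technical. These are bulk samples, in which fewer cells in S phase and less RNA per cell cannot be told apart.

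Replication is prepared in G1, when the origin recognition complex, Cdc6 and Cdt1 load the MCM helicase onto DNA in an inactive form. Cdc45 and the GINS complex then turn it into the working helicase, and polymerases, the sliding clamp PCNA and its RFC loader, the single-strand binder RPA and a supply of deoxynucleotides carry the fork forward. D-type cyclins with Cdk4 or Cdk6, and E-type cyclins with Cdk2, release E2F transcription factors from RB proteins, and E2F switches on many of these genes. Adult HSCs are mostly quiescent, so that the level of these genes in an HSC sample is often read as a measure of how much of it is cycling.

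The RPKM values implied depths of 12.2 to 44.9 in units of 1000000 reads per library. The sort was read in HSC genes, and its purity was not tested. HSC markers, 11 of 11 in the table, summed to 1202 to 1421 RPKM in saline young. Their sums were 1016 to 1146 RPKM in saline old and 958 to 1536 RPKM in BRL37344 old. Among them, Slamf1 ranged over 13.9 to 41.6 RPKM and Hlf over 49.4 to 166 RPKM. Kit, the stem cell factor receptor, stood between 184 and 311 RPKM, and Procr, the endothelial protein C receptor, between 29.0 and 71.0 RPKM. Several libraries stood apart in other genes. Neutrophil and granule markers, 16 of 16 in the table and none at 0 throughout a group, summed to between 1283 and 20258 RPKM in saline young, 1096 and 1360 in saline old, and 588 and 6254 in BRL37344 old. The highest sums were in saline young replicate 3 and BRL37344 old replicate 2. Jchain, which marks plasma cells, stood at 0.275, 263 and 0.0002 RPKM in saline young replicates 1, 2 and 3, at 16.3, 2.76 and 0.928 in saline old and at 2.09, 263 and 6.16 in BRL37344 old. The median over all members is therefore also given without the 2 libraries highest in neutrophil markers, saline young replicate 3 and BRL37344 old replicate 2. That choice was made after seeing the data.

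The cyclin, kinase and E2F genes held both the most and the least abundant tested member. Levels are compared per length, in RPKM. The kinase gene Cdk4 was the most abundant member, at 763, 882 and 858 in saline young, 628, 798 and 916 in saline old and 710.4, 686 and 848 RPKM in BRL37344 old. E2f2, an activating E2F factor, was the least abundant tested member, at 1.17, 0.000342 and 1.22 in saline young, 0.478, 0.250 and 1.24 in saline old and 0.469, 0.618 and 1.09 RPKM in BRL37344 old. The values overlapped across all 3 groups for both genes. Among the D-type cyclins, Ccnd2 ranged over 263 to 492 RPKM and Ccnd3 over 190.1 to 272 RPKM, whereas Ccnd1 ranged over 6.26 to 16.4 RPKM. Cdk6, the partner kinase that is akin to Cdk4, ranged over 1.63 to 9.60 RPKM, and its highest and lowest libraries were both BRL37344 old. Cyclin E was carried mostly by Ccne2, over 6.82 to 29.3 RPKM, with Ccne1 over 1.24 to 7.51 RPKM, and their kinase gene Cdk2 ranged over 40.7 to 59.5 RPKM. E2f1, the other activating factor listed, ranged over 1.40 to 5.68 RPKM.

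In the licensing role the subunits of the MCM2-7 ring were not at 1 level. Mcm3 was the highest, at 174, 225 and 218 in saline young, 125, 171 and 206 in saline old and 137, 118 and 185 RPKM in BRL37344 old. Mcm5 ranged over 50.6 to 125 RPKM, Mcm4 over 57.7 to 94.8 RPKM, Mcm6 over 27.9 to 55.3 RPKM and Mcm7 over 17.9 to 33.0 RPKM. Mcm2 was the least even subunit, at 1.45, 16.6 and 21.6 in saline young, 36.9, 14.0 and 29.6 in saline old and 28.3, 4.19 and 13.5 RPKM in BRL37344 old, with high and low libraries in every group. Orc1, the origin recognition subunit that is lost and remade with each cycle, was the lowest licensing gene, at 5.54, 1.53 and 0.278 in saline young, 4.61, 0.763 and 1.20 in saline old and 0.660, 0.735 and 0.0761 RPKM in BRL37344 old. Orc6 was steadier, over 27.5 to 45.6 RPKM. Orc2 ranged over 3.37 to 15.5 RPKM, and Cdc6, which loads the helicase, ranged over 11 to 21.8 RPKM. Among genes that activate the helicase, Gins4 was the highest and the most even, at 47.5, 45.6 and 54.4 in saline young, 51.4, 55.6 and 59.1 in saline old and 47.6, 45.0 and 57.1 RPKM in BRL37344 old. Cdc45 was the lowest, at 0.0004, 4.11 and 1.93 in saline young, 0.000448, 1.5 and 2.27 in saline old and 1.69, 0.807 and 2.6 RPKM in BRL37344 old. Its values in saline young replicate 1 and saline old replicate 1 are at or close to the offset of 0.0001 RPKM per transcript that the table adds. Gins1 ranged over 7.76 to 22.4 RPKM, Gins3 over 5.73 to 12.2 RPKM and Mcm10 over 2.96 to 11.1 RPKM.

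At the fork, the clamp loader gene Rfc2 was the highest, at 281, 318 and 304 in saline young, 218, 308 and 357 in saline old and 275, 253 and 299.5 RPKM in BRL37344 old. The large loader subunit gene Rfc1 was the lowest of that role, at 28.5, 39.4 and 30.8 in saline young, 32.3, 36.6 and 38.7 in saline old and 26.1, 22.5 and 33.6 RPKM in BRL37344 old. The clamp gene Pcna ranged over 67.4 to 117 RPKM. A pseudogene row, Pcna-ps2, held 36.3 to 60.1 RPKM beside it, so that reads of Pcna may be split between the copies and its level is uncertain. The flap endonuclease gene Fen1 ranged over 50.3 to 105 RPKM and the ligase gene Lig1 over 24.2 to 62.0 RPKM. Of the polymerase genes, Pold1 ranged over 31.3 to 71.1 RPKM, Pole over 24.3 to 42.2 RPKM, Pola1 over 11.7 to 24.4 RPKM and the primase gene Prim1 over 29.9 to 59.5 RPKM. Prim2, the partner of Prim1 in the same enzyme, was at 0.354, 0.684 and 0.733 in saline young, 0.110, 0.187 and 0.112 in saline old and 0.0560, 0.0005 and 0.0760 RPKM in BRL37344 old. All 3 old saline values of Prim2 were below the young ones, but all of them rest on few reads and the gene was not tested.

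In nucleotide supply, the subunits of ribonucleotide reductase were far apart in level. Rrm1, the large subunit, was the highest, at 108, 128 and 124 in saline young, 103, 128 and 154 in saline old and 75.7, 65.4 and 138 RPKM in BRL37344 old. Rrm2, the small subunit that cells make for S phase, was the lowest, at 2.37, 1.63 and 4.34 in saline young, 4.51, 3.43 and 3.01 in saline old and 0.669, 1.06 and 2.19 RPKM in BRL37344 old. The thymidylate synthase gene Tyms ranged over 61.1 to 167 RPKM, the thymidine kinase gene Tk1 over 23.3 to 90.1 RPKM and the dUTPase gene Dut over 5.83 to 13.4 RPKM. In the chromatin role, Uhrf1, which brings maintenance methylation to new DNA, was the highest, at 30.5, 41.9 and 29.5 in saline young, 24.3, 42.3 and 47.8 in saline old and 18.6, 23.8 and 36.9 RPKM in BRL37344 old. Chaf1a and Chaf1b encode subunits of one histone chaperone, CAF-1, and their values are given with the comparisons below. SMART-Seq libraries do not mark strand, and 21 of the 49 members share exonic bases with another annotated gene, 11 of them over more than 10% of their exonic bases. Of those, Fen1 shares 84.2%, with Tmem258 and Gm10143, and Chaf1a 52.5%, with Ubxn6, so that reads of these pairs cannot be told apart.

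**Figure D1:**
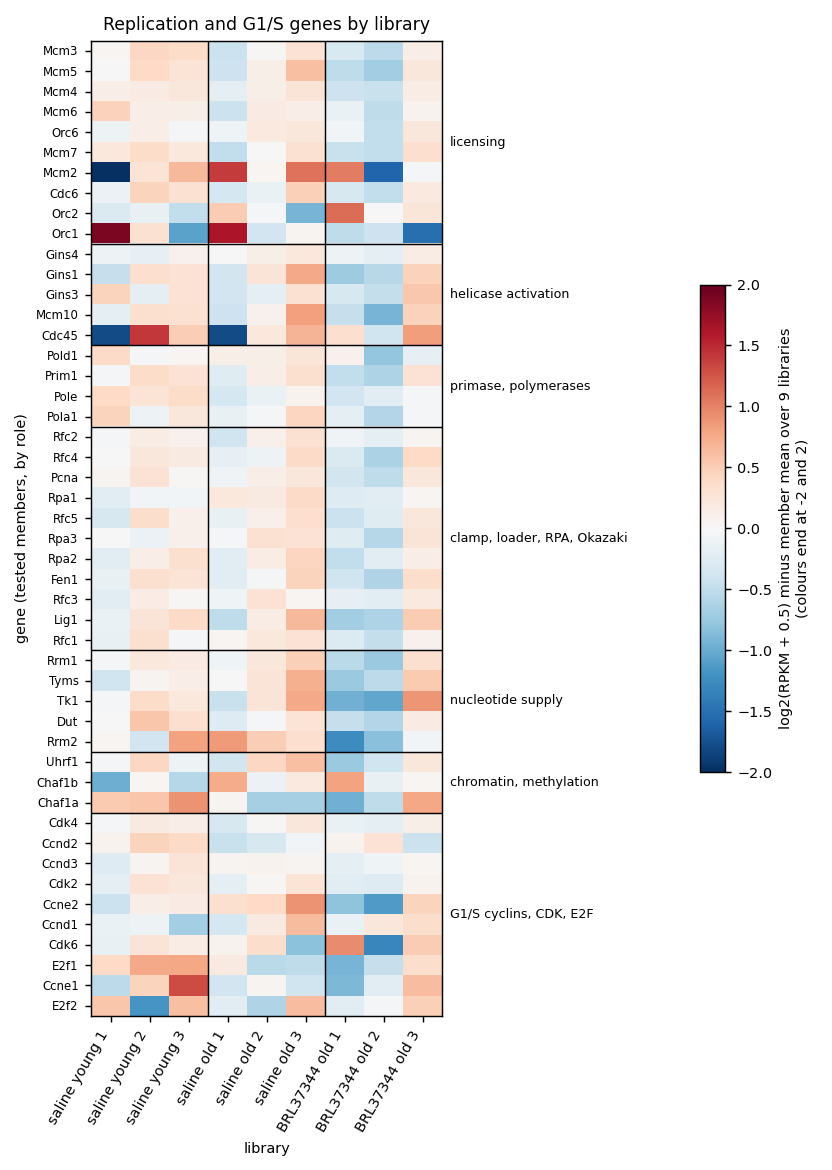
Level of each of the 48 tested members in each of the 9 libraries, as log2(RPKM + 0.5) minus the mean of that member over the 9 libraries, grouped by role and ordered by level within a role. BRL37344 old replicates 1 and 2 are pale to dark blue for most members, while replicate 3 is mostly red, as is saline old replicate 3.

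The first comparison asked whether old and young HSCs differed in these genes under saline. No member passed (limma on log2(RPKM + 0.5), Benjamini-Hochberg adjusted p of 0.05, 0 higher and 0 lower of 48), where 1.18% of all genes tested were called higher and 0.4% lower. At an unadjusted p under 0.05 there were 2 members higher, against 6.44% of all genes, and 4 lower, against 8.59%. The changes pointed both ways, with 23 above 0, beside 47.3% of all genes, and 25 below, beside 52.7%. Their median log2 change was -0.04, beside -0.02 over all genes tested.

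The member with the smallest p was Pole, the catalytic subunit of the leading-strand polymerase. Its level was 42.2, 38.8 and 41.0 RPKM in saline young and 25, 28.9 and 33.4 in saline old, with every old library below every young one (log2 change -0.48 ± 0.14 SE, limma adjusted p = 0.152). Ccnd2, the most abundant D-type cyclin gene, was at 378, 492 and 470.0 in saline young and 263, 287 and 345 RPKM in saline old, again with no overlap (log2 change -0.58 ± 0.19 SE, limma adjusted p = 0.183). Rpa1, the large subunit of the single-strand binder, went the other way, from 80.1, 89.8 and 89.1 to 107, 106 and 121 RPKM, and every old library was the higher (log2 change 0.36 ± 0.11 SE, limma adjusted p = 0.176). These 3 genes thus separated the groups without passing over all genes.

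The rows of the CAF-1 subunit genes pointed in opposite directions. Chaf1a shares 52.5% of its exonic bases with Ubxn6, so its row may hold reads of that gene. Chaf1a was at 12.6, 12.9 and 16.7 in saline young and 9.06, 5.30 and 5.26 RPKM in saline old, and the groups did not overlap (log2 change -1.08 ± 0.40 SE, limma adjusted p = 0.248). Chaf1b was at 4.37, 9.28 and 5.93 in saline young and 15.5, 8.26 and 10.4 RPKM in saline old, and the groups overlapped (log2 change 0.77 ± 0.34 SE, limma adjusted p = 0.323). E2f1 was at 4.26, 5.59 and 5.68 in saline young and 3.60, 1.98 and 2.06 RPKM in saline old, all old libraries being lower (log2 change -0.93 ± 0.35 SE, limma adjusted p = 0.264). Ccne2 was at 11.4, 17.1 and 17.4 in saline young and 19.5, 20.6 and 29.3 RPKM in saline old, all old libraries being higher (log2 change 0.58 ± 0.37 SE, limma adjusted p = 0.499). Ccnd1 was at 9.44, 9.59 and 6.26 in saline young and 8.02, 11.8 and 16.4 RPKM in saline old with overlap (log2 change 0.46 ± 0.28 SE, limma adjusted p = 0.475). In all, the groups lay apart for 2 members higher in old, Rpa1 and Ccne2, and 4 lower, Pole, Ccnd2, Chaf1a and E2f1. Over all genes these shares were 9.39% and 10.9%, so the members were not above the background of 13516 genes.

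The libraries of each group differed among themselves. Saline old replicate 1 was the lowest of its group for 35 of 48 members, and replicate 3 the highest for 35, where 37.1% and 31.8% of all genes had that order. The mean log2 level of the tested members was 4.76, 4.92 and 5.15 in saline old replicates 1, 2 and 3, and 4.77, 5.07 and 5.06 in saline young. Saline young replicate 1 was the lowest of its group for 33 members, against 38.3% of all genes, and replicate 2 the highest for 28, against 32.3%. In both groups the library with the lowest mean was also the shallowest, at 12.2 and 15.3 (in units of 1000000 reads), and in saline old the library with the highest mean was the deepest, at 41.4. The part of depth in this order was not tested. Saline old replicate 1 lay below all 3 saline young libraries for 25 members, against 30.2% of all genes, replicate 2 for 10, against 31.1%, and replicate 3 for 6, against 33%. They lay above them for 6, 12 and 24 members, against 26.7%, 28% and 28.4%. Leaving out saline old replicate 3 moved the median log2 change to -0.20, and leaving out replicate 1 moved it to 0.06, so that its direction rests on single libraries. It was -0.11 without saline young replicate 1, 0.03 without replicate 2 and -0.01 without replicate 3. Without both libraries that were high in neutrophil markers it was also -0.01. Multipotent and committed progenitor markers summed to 478 to 874 RPKM in saline young and 366 to 381 in saline old. Of 12 tested, 2 were called lower in old, against 0.4% of all genes, and 0 higher, against 1.18%. The part of such cells in this comparison was not tested.

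**Figure D2:**
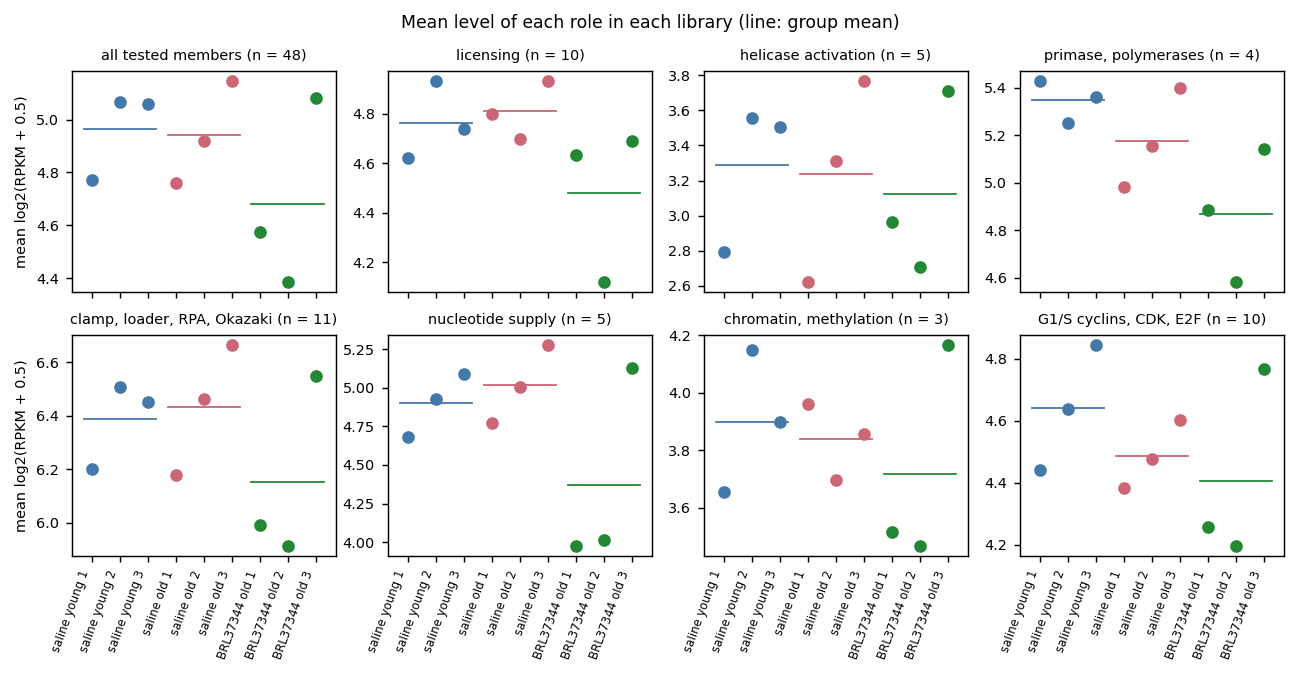
Mean log2(RPKM + 0.5) over the tested members of each role in each library (points), with the mean of each group as a line; n is the number of genes and each panel has its own axis. For all tested members the saline young and saline old points cover about the same range, 4.77 to 5.07 and 4.76 to 5.15, and BRL37344 old replicates 1 and 2 lie below both while replicate 3 lies within the range of saline old.

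The second comparison asked whether BRL37344 changed these genes in old HSCs. In BRL37344 old, 40 of 48 members had a log2 change below 0 against saline old, beside 49% of all genes tested, and the median was -0.23 beside 0.01 over all genes. No member passed (limma, 0 higher and 0 lower of 48, where 0% of all genes were called in either direction). At an unadjusted p under 0.05, 0 members were higher, against 2.9% of all genes, and 4 were lower, against 2.74%. The share of negative changes differed by role. Below 0 were 11 of 11 clamp, loader, RPA and Okazaki genes and 5 of 5 nucleotide supply genes. So were 4 of 4 primase and polymerase genes and 9 of 10 licensing genes. Fewer were below 0 in helicase activation, 3 of 5, chromatin, 2 of 3, and the cyclin, kinase and E2F genes, 6 of 10. The median log2 change was farthest from 0 in nucleotide supply, at -0.56. It was -0.15 in helicase activation, -0.04 in chromatin and -0.03 in the cyclin, kinase and E2F genes.

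The shift was carried by 2 of the 3 treated libraries. The mean log2 level of the tested members was 4.57, 4.39 and 5.08 in replicates 1, 2 and 3 of BRL37344 old. Replicate 1 lay below all 3 saline old libraries for 32 of 48 members and replicate 2 for 36, where 25.8% and 25.7% of all genes did so. Replicate 3 lay below them for 6, against 26.8% of all genes, and above them for 10, against 20.9%. The median member stood -0.41 and -0.50 from the saline old mean on the log2 scale in replicates 1 and 2, and 0.13 in replicate 3. Within the group, replicate 3 was the highest for 41 of 48 members, against 34.5% of all genes.

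**Figure D3:**
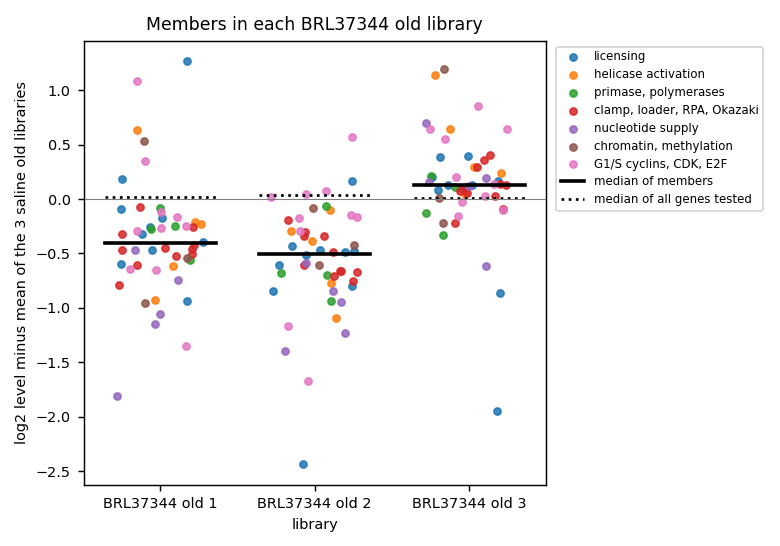
Log2(RPKM + 0.5) of each tested member in each BRL37344 old library minus its mean over the 3 saline old libraries, coloured by role; horizontal jitter is arbitrary. The thick line, the median of the 48 members, lies at -0.41, -0.50 and 0.13 in replicates 1, 2 and 3, and the dotted line, the median of all genes tested, stays near 0.

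The same order recurred in 22 of the 48 members, which lay below the saline old range in replicates 1 and 2 and not in replicate 3, where 8.26% of all genes did. Tk1, the salvage enzyme for thymidine, was one of them, at 35.6, 58.0 and 82.5 in saline old and 24.8, 23.3 and 90.1 RPKM in BRL37344 old. Its replicates 1 and 2 were the lowest of all 9 libraries and its replicate 3 the highest. Tyms, which makes thymidylate anew, was at 102, 122 and 167 in saline old and 61.1, 70.8 and 146 RPKM in BRL37344 old (log2 change -0.57 ± 0.31 SE, limma adjusted p = 0.839). Rrm1 was at 103, 128 and 154 in saline old and 75.7, 65.4 and 138 RPKM in BRL37344 old (log2 change -0.52 ± 0.25 SE, limma adjusted p = 0.839). Ccne2, the cyclin E gene that partners Cdk2, was at 19.5, 20.6 and 29.3 in saline old and 8.62, 6.82 and 21.2 RPKM in BRL37344 old (log2 change -1.04 ± 0.37 SE, limma adjusted p = 0.839). In all 4 genes replicate 3 lay within or above the range of saline old.

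Other members of this pattern were Mcm4, Mcm5, Mcm10, Gins1, Gins4, Prim1, Pola1, Pcna, Rfc1, Rfc3, Rfc4, Rfc5, Rpa3, Fen1, Lig1, Dut, Uhrf1 and Cdk2. The loader gene Rfc1 was at 32.3, 36.6 and 38.7 in saline old and 26.1, 22.5 and 33.6 RPKM in BRL37344 old (log2 change -0.40 ± 0.18 SE, limma adjusted p = 0.839). Rpa3, the small subunit of RPA, was at 85.9, 108 and 106 in saline old and 73.9, 58.7 and 105 RPKM in BRL37344 old (log2 change -0.37 ± 0.19 SE, limma adjusted p = 0.839). The ligase gene Lig1 was at 27.5, 44.0 and 62.0 in saline old and 24.2, 25.7 and 56.0 RPKM in BRL37344 old, so that replicates 1 and 2 lay below the lowest saline old library by little.

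The remaining members of this pattern are given by the range of each group. Mcm10, which helps the helicase to fire, lay between 5.25 and 7.75 RPKM in saline young, between 4.42 and 11.1 in saline old and between 2.96 and 8.54 in BRL37344 old. The GINS gene Gins1 lay between 9.30 and 16.5 RPKM in saline young, between 9.94 and 22.4 in saline old and between 7.76 and 18 in BRL37344 old. The primase gene Prim1 lay between 44.9 and 59.5 RPKM in saline young, between 39.1 and 57.8 in saline old and between 29.9 and 56.3 in BRL37344 old. In each of these 3 genes the treated group had the lowest library of the 9. The loader gene Rfc4 lay between 95.3 and 112 RPKM in saline young, between 85 and 124 in saline old and between 61.6 and 125 in BRL37344 old. Rfc5 lay between 72.5 and 116 RPKM in saline young, between 81.4 and 114 in saline old and between 67.1 and 106 in BRL37344 old. Pcna lay between 97.2 and 117 RPKM in saline young, between 91.4 and 112 in saline old and between 67.4 and 112 in BRL37344 old. Fen1, which trims the flaps of Okazaki fragments, lay between 69.7 and 95.9 RPKM in saline young, between 66.0 and 105 in saline old and between 50.3 and 98.7 in BRL37344 old. These 4 genes too had their lowest library in BRL37344 old.

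In other members replicates 1 and 2 were not both below the saline old range, and BRL37344 old overlapped saline old. Replicate 3 was still the highest treated library in Mcm6, Mcm7, Cdc6, Orc6, Gins3, Rpa2 and Ccne1. In Orc2 and Cdk6 the highest was replicate 1. Mcm6 lay between 43.7 and 55.3 RPKM in saline young, between 29.6 and 44.9 in saline old and between 27.9 and 42.4 in BRL37344 old. Mcm7 lay between 29.3 and 33.0 RPKM in saline young, between 18 and 31.4 in saline old and between 17.9 and 32.1 in BRL37344 old. Cdc6 lay between 14.4 and 21.3 RPKM in saline young, between 12.1 and 21.8 in saline old and between 11 and 18 in BRL37344 old. Orc2 lay between 4.74 and 6.13 RPKM in saline young, between 3.37 and 9.93 in saline old and between 6.92 and 15.5 in BRL37344 old. Orc6 lay between 36.2 and 42.4 RPKM in saline young, between 36.8 and 45.6 in saline old and between 27.5 and 45.4 in BRL37344 old. In the licensing role, Orc2 thus had its highest library in BRL37344 old. Gins3 lay between 7.07 and 11.4 RPKM in saline young, between 6.16 and 10.2 in saline old and between 5.73 and 12.2 in BRL37344 old. Rpa2, the middle subunit of RPA, lay between 71.1 and 103 RPKM in saline young, between 69.8 and 110.4 in saline old and between 58.2 and 90.5 in BRL37344 old. The cyclin gene Ccne1 lay between 1.75 and 7.51 RPKM in saline young, between 1.95 and 2.88 in saline old and between 1.24 and 4.46 in BRL37344 old. The kinase gene Cdk6 lay between 4.22 and 5.79 RPKM in saline young, between 2.46 and 6.22 in saline old and between 1.63 and 9.60 in BRL37344 old, a wide range for the treated group.

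For 5 of 48 members, or 10.4%, all 3 treated libraries lay below saline old, against 5.28% of all genes, and for 0 members did all 3 lie above, against 4.82%. Rpa1 was at 107, 106 and 121 in saline old and 77.8, 78.9 and 95.1 RPKM in BRL37344 old, beside 80.1 to 89.8 RPKM in saline young (log2 change -0.41 ± 0.11 SE, limma adjusted p = 0.839). Rrm2 was at 4.51, 3.43 and 3.01 in saline old and 0.669, 1.06 and 2.19 RPKM in BRL37344 old, low values in both groups (log2 change -1.27 ± 0.39 SE, limma adjusted p = 0.839). Pold1, the catalytic subunit of the lagging-strand polymerase, was at 58.9, 58.6 and 64.4 in saline old and 57.2, 31.3 and 48.0 RPKM in BRL37344 old (log2 change -0.45 ± 0.20 SE, limma adjusted p = 0.839). The other 2 were Orc1 and Ccnd3. Orc1 was at 4.61, 0.763 and 1.20 in saline old and 0.660, 0.735 and 0.0761 RPKM in BRL37344 old. Ccnd3 was at 236, 238 and 234 in saline old and 198, 213 and 232 RPKM in BRL37344 old. The groups nearly touched for Orc1, Ccnd3 and Pold1.

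Ccnd2 had another order in the treated libraries. It was at 379, 439 and 267 RPKM in replicates 1, 2 and 3 of BRL37344 old, beside 263, 287 and 345 in saline old and 378, 492 and 470.0 in saline young. Replicates 1 and 2 thus lay within the young range and replicate 3 near the bottom of the old one, the reverse of their order for Tk1 or Rrm1. The log2 change against saline old was 0.26 with overlap between the groups (limma adjusted p = 0.852). Cdk4 and Cdk2, the kinases that act on RB proteins, were at 710.4, 686 and 848 RPKM and at 41.4, 40.7 and 50.9 RPKM in BRL37344 old, with replicate 3 the highest for both.

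**Figure D4:**
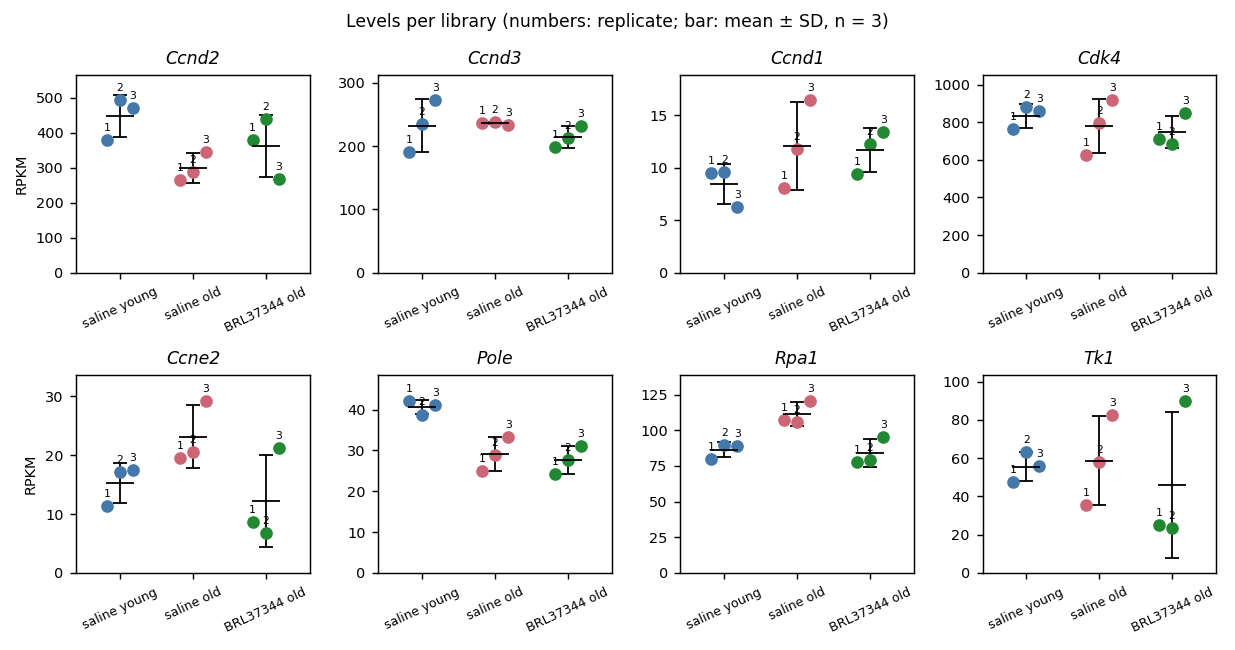
RPKM of 8 members in every library, with the replicate number beside each point and the mean ± SD of each group (n = 3); axes start at 0. Pole and Ccnd2 are lower in all saline old than in all saline young libraries, Rpa1 is higher, and for Ccne2 and Tk1 BRL37344 old replicates 1 and 2 lie far below replicate 3, at 24.8, 23.3 and 90.1 RPKM for Tk1.

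Because E2F switches on many replication genes, the promoters of the members were searched for the E2F letters TTTCCCGC, TTTCGCGC, TTTGCCGC and TTTGGCGC. Both strands were read, in RefSeq windows of GRCm38.p6 from 250 bases before to 50 bases after each annotated start. A window was found for 41 of the 51 listed genes, of which 15 held at least 1 match, or 36.6%, beside 2.6% of all 27025 genes with a window. By role the matches were in 7 of 10 licensing genes with a window, Cdt1 included, and in 0 of 5 nucleotide supply genes. Of the tested members with a window, the 14 with a match had a median log2 change of -0.19 in BRL37344 old against saline old, and the 26 without one -0.29. A match is a description of letters, and a gene without one may still bind E2F. The 250 bases before the start are shown for the 5 members that held a match there and lay below saline old in BRL37344 old replicates 1 and 2 only. Capitals mark the matched letters, and each sequence is written 5′ to 3′ on the strand of its gene.
Mcm5 (chr8:75109259-75109508, plus strand): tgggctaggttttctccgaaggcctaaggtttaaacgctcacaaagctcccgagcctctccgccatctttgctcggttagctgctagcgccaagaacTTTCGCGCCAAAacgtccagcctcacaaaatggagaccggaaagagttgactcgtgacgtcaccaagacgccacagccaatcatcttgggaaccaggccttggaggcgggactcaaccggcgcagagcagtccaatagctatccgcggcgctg
Cdk2 (chr10:128705052-128705301, minus strand): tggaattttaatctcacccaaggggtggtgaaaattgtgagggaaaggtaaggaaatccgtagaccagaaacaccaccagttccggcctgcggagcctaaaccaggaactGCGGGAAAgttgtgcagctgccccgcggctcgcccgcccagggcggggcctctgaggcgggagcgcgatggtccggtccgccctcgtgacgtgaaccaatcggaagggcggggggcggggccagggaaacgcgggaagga
Pola1 (chrX:93632156-93632405, minus strand): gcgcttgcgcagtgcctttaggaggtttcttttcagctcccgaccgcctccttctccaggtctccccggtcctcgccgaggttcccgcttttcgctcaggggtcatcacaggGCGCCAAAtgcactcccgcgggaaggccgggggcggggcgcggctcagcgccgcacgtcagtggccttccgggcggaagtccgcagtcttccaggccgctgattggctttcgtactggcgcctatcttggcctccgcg
Uhrf1 (chr17:56304063-56304312, plus strand): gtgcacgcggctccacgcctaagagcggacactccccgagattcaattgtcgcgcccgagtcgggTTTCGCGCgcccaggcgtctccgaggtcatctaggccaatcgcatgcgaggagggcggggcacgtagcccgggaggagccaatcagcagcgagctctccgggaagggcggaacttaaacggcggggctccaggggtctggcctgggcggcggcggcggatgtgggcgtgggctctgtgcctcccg
Rfc3 (chr5:151651209-151651458, minus strand): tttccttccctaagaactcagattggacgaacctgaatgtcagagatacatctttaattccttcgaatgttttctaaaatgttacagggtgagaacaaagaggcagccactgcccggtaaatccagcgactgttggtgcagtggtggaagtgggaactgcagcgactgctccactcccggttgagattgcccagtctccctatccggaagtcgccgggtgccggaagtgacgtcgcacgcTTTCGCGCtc
In Mcm5 a pair of matches, 1 on each strand, overlapped from 153 and 149 bases before the start. In Cdk2, Pola1 and Uhrf1 the match began 140, 138 and 185 bases before it, and in Rfc3 10 bases before it. Uhrf1 also had a window at another annotated start, upstream of the one shown, and that window held no match. Mcm5 was at 61.6, 88.9 and 125 in saline old and 58.1, 50.6 and 96.5 RPKM in BRL37344 old, Cdk2 at 42.4, 49.5 and 59.0 and 41.4, 40.7 and 50.9, and Pola1 at 16.1, 17.5 and 24.3 and 15.6, 11.7 and 17.3. Uhrf1 was at 24.3, 42.3 and 47.8 in saline old and 18.6, 23.8 and 36.9 RPKM in BRL37344 old, and Rfc3 at 50.4, 65.6 and 54.6 and 47.3, 45.6 and 60.9. In all 5 genes BRL37344 old replicate 3 was the highest treated library.

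Other measures differed in the same 2 libraries. The mean log2 level of 24 tested mitosis genes was 2.91, 2.90 and 4.24 in replicates 1, 2 and 3 of BRL37344 old, against 4.06 to 4.43 in saline old and 4.14 to 4.19 in saline young. Flt3, a receptor of multipotent progenitors, was at 78.7, 54.7 and 14.3 RPKM in replicates 1, 2 and 3 of BRL37344 old and at 28.6, 21.5 and 10.1 in saline old. Slamf1, the gene of the HSC surface marker CD150, was at 20.7, 15.9 and 33.8 against 41.6, 38.6 and 29.4 RPKM, and Cd34 at 315, 247 and 185 against 181, 187 and 191 RPKM. Saline young replicates 1, 2 and 3 held Flt3 at 34.2, 27.4 and 30.1 RPKM. There Slamf1 was at 13.9, 21.4 and 23.3 RPKM and Cd34 at 268.5, 272 and 242 RPKM. In BRL37344 old against saline old, 8 of 11 HSC markers were above 0 and 3 below, beside 51% and 49% of all genes. Their mean log2 level was 6.31, 6.25 and 5.76 in BRL37344 old, 5.73 to 5.95 in saline old and 6.10 to 6.17 in saline young. Multipotent and committed progenitor markers, 14 of 14 in the table, summed to 389 to 634 RPKM in BRL37344 old. They summed to 366 to 381 in saline old and 478 to 874 in saline young. In BRL37344 old and saline old 0 of them were at 0 throughout the group, and in saline young 1 was. The 4 nuclear-annotated copies of mitochondrial genes Gm10925, Gm28437, Gm28661 and Gm29216 held 6.64%, 5.97% and 5.54% of the column totals in the 3 treated libraries and 5.25% to 5.58% in saline old. The part of these measures in the result was not tested.

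Neutrophil markers and depth were also read by treated library. In replicates 1, 2 and 3 of BRL37344 old the mean log2 level of neutrophil markers was 1.60, 6.63 and 4.67. The member means were 4.57, 4.39 and 5.08. Depth was 16.0, 33.5 and 44.9 in units of 1000000 reads. Replicate 3, with the highest member mean, was the deepest, and replicate 2, with the lowest, was not the shallowest. The part of neutrophil markers or depth in the result was not tested. The median log2 change over members was -0.45 without BRL37344 old replicate 3, -0.13 without replicate 2 and -0.18 without replicate 1. It was -0.38 without saline old replicate 1 and -0.15 without saline old replicate 3. Of the 2 libraries highest in neutrophil markers only replicate 2 enters this difference, so leaving out both gives the value without replicate 2. The number of members called stayed at 0 in each of these fits.

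**Figure D5:**
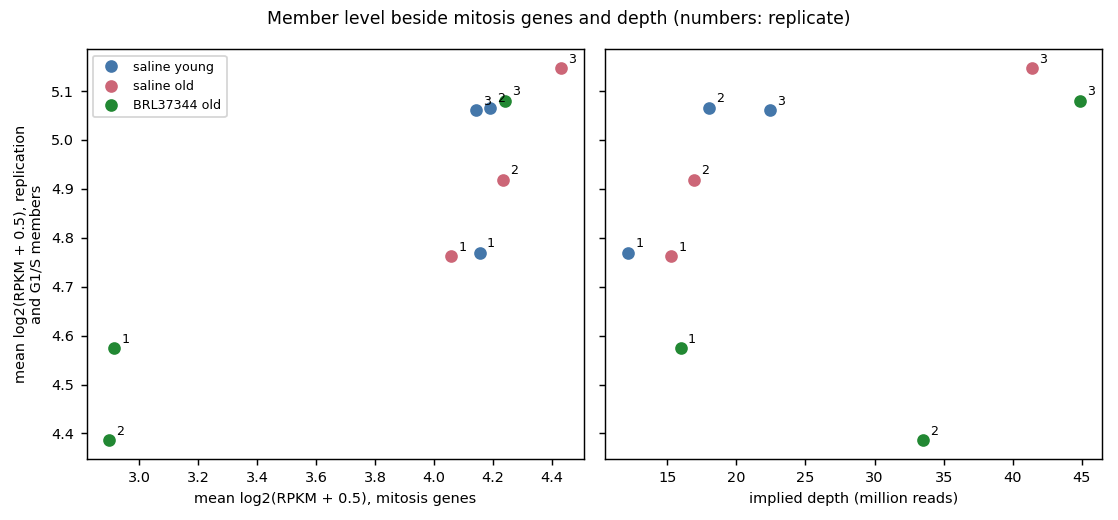
Mean log2(RPKM + 0.5) of the tested replication and G1/S members in each library against the same mean over mitosis genes (left) and against implied depth (right); numbers are replicates and each point is 1 library. BRL37344 old replicates 1 and 2 stand apart from the other 7 libraries on the left, at 2.91 and 2.90 for mitosis genes, and on the right replicate 2 is low at a depth of 33.5 in units of 1000000 reads.

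The last comparison set BRL37344 old against saline young, which share no library but differ in both age and drug. Both this comparison and the first use the same saline young libraries, so their values are not independent. No member passed (limma, 0 higher and 0 lower of 48), where 0.695% of all genes were called higher and 0.074% lower. At an unadjusted p under 0.05, 0 members were higher, against 5.25% of all genes, and 5 were lower, against 4.13%. The log2 change was below 0 in 41 of 48 members, and above 0 in 7, beside 55.5% and 44.5% of all genes, with a median of -0.33 beside -0.04. The groups lay apart for 3 members lower, Pole, E2f1 and Mcm6, against 7.88% of all genes, and for 1 higher, Orc2, against 7.29%.

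Pole had the smallest p here too, at 42.2, 38.8 and 41.0 in saline young and 24.3, 27.6 and 31.2 RPKM in BRL37344 old, and its treated libraries covered nearly the range of saline old (log2 change -0.55 ± 0.14 SE, limma adjusted p = 0.17). E2f1 was at 4.26, 5.59 and 5.68 in saline young and 1.40, 2.12 and 4.13 RPKM in BRL37344 old, with replicate 3 just below the lowest young one (log2 change -0.99 ± 0.35 SE, limma adjusted p = 0.396). Mcm4, an MCM ring subunit, was at 86.6, 88.9 and 92.4 in saline young and 59.4, 57.7 and 87.3 RPKM in BRL37344 old, and its replicate 3 lay within the young range (log2 change -0.41 ± 0.17 SE, limma adjusted p = 0.476). Mcm3 was at 174, 225 and 218 in saline young and 137, 118 and 185 RPKM in BRL37344 old and the groups overlapped (log2 change -0.50 ± 0.21 SE, limma adjusted p = 0.477).

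Dut, which clears dUTP so that uracil is kept out of DNA, was at 9.06, 13.4 and 11.6 in saline young and 6.39, 5.83 and 10.1 RPKM in BRL37344 old with overlap (log2 change -0.60 ± 0.25 SE, limma adjusted p = 0.502). The CAF-1 pair again differed in sign, with the same limit of shared bases for Chaf1a. Chaf1a was at 12.6, 12.9 and 16.7 in saline young and 4.19, 5.96 and 15.2 RPKM in BRL37344 old (log2 change -0.89 ± 0.40 SE, limma adjusted p = 0.531). Chaf1b was at 4.37, 9.28 and 5.93 in saline young and 16.1, 8.08 and 9.36 RPKM in BRL37344 old (log2 change 0.73 ± 0.34 SE, limma adjusted p = 0.544). Rrm2 was at 2.37, 1.63 and 4.34 in saline young and 0.669, 1.06 and 2.19 RPKM in BRL37344 old (log2 change -0.87 ± 0.39 SE, limma adjusted p = 0.532). For each of these 4 genes the groups overlapped. The median log2 change over members was -0.57 without BRL37344 old replicate 3, -0.18 without replicate 2 and -0.12 without the 2 libraries highest in neutrophil markers.

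Genes of the same pathways outside the member list were read in the same way. Of 38 other replication factors, all tested, 0 passed in any comparison, and 23 were below 0 in BRL37344 old against saline old, beside 49% of all genes, with a median log2 change of -0.17. Their means were 4.02, 3.90 and 4.49 in replicates 1, 2 and 3 of BRL37344 old and 4.13 to 4.35 in saline old. Those with the smallest p in that comparison were Pole4, a polymerase epsilon subunit, at 146, 167 and 146 in saline old and 123, 131 and 137 RPKM in BRL37344 old, and Asf1b, a histone chaperone, at 27.4, 37.1 and 44.2 in saline old and 16.1, 19.0 and 36.8 RPKM in BRL37344 old. Between saline old and saline young they were the topoisomerase gene Top1, at 4.03, 4.08 and 4.57 in young and 1.75, 3.72 and 2.02 RPKM in old, and Chtf18, an alternative clamp loader subunit, at 3.09, 3.51 and 2.66 in saline young and 4.03, 8.02 and 5.94 RPKM in saline old. Tipin, a fork protection gene, was at 178, 165 and 149 in saline young and 104, 69.2 and 150.0 RPKM in BRL37344 old. Pold4, a polymerase delta subunit, was at 29.7, 26.7 and 28.1 in saline young and 34.6, 39.5 and 33.3 RPKM in BRL37344 old.

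Of 16 other nucleotide enzymes, 0 passed, and the medians were 0.01 in saline old against saline young and -0.15 in BRL37344 old against saline old. Samhd1, which breaks down deoxynucleotides, was at 51.7, 42.8 and 39.8 in saline young, 29.7, 30.0 and 30.8 in saline old and 38.9, 48.4 and 32.4 RPKM in BRL37344 old. Its old saline values all lay below the young and the treated ones (limma adjusted p = 0.142 against young and 0.839 for BRL37344 old against saline old). Cad, the first enzyme of pyrimidine synthesis, stood at 15.1, 19.6 and 12.7 in saline young, 11.8, 5.06 and 7.29 in saline old and 15.6, 10.1 and 6.06 RPKM in BRL37344 old. Dtymk, which makes dTDP, was at 121, 162 and 177 in saline old and 104, 103 and 163 RPKM in BRL37344 old, and Umps, which completes UMP, at 62.7, 70.8 and 64.9 in saline young and 60.2, 48.4 and 54.2 RPKM in BRL37344 old.

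Of 23 other G1/S regulators, 0 passed, and 18 were below 0 in saline old against saline young, beside 52.7% of all genes, with a median of -0.24. In BRL37344 old against saline old the list had 12 above 0 and 11 below, with a median of 0.00. Cdkn2c, the Cdk4 and Cdk6 inhibitor p18, had the smallest p of that list and ran against it. It was at 16.1, 14.3 and 11.4 in saline young, 34.8, 27.9 and 28.4 in saline old and 28.2, 23.6 and 48.9 RPKM in BRL37344 old, with every old library above every young one (log2 change 1.10, limma adjusted p = 0.0682 in saline old, and 1.18, adjusted p = 0.0803 in BRL37344 old). E2f6, a repressor E2F, was at 54.4, 50.3 and 53.1 in saline young and 47.6, 27.7 and 18.5 RPKM in saline old. Mycn was at 331, 201 and 201 in saline old and 182, 165 and 164 RPKM in BRL37344 old, and the RB relative Rbl1 at 4.98, 5.54 and 9.22 in saline old and 9.81, 6.71 and 12.8 RPKM in BRL37344 old. Ccna2, the S phase and mitotic cyclin, was at 63.3, 62.0 and 69.0 in saline young, 56.9, 49.4 and 42.3 in saline old and 18.5, 20.6 and 70.4 RPKM in BRL37344 old.

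Of 25 mitosis genes, 24 were tested and 0 passed. All 24 were below 0 in BRL37344 old against saline old, beside 49% of all genes, with a median of -0.93. Of these, 10 had an unadjusted p under 0.05, beside 2.74% of all genes that were lower at that p. The checkpoint kinase gene Bub1b was at 22.8, 16.8 and 14.0 in saline young, 17.3, 18.1 and 23.0 in saline old and 8.23, 7.72 and 14.7 RPKM in BRL37344 old. The spindle gene Tpx2 was at 21.4, 26.7 and 26.9 RPKM in saline old and 9.07, 8.54 and 23.6 in BRL37344 old, and the spindle motor gene Kif11 at 17.1, 15.9 and 23.6 and 7.57, 5.79 and 18.4 RPKM. In all 3 genes BRL37344 old replicates 1 and 2 were the lowest of the 9 libraries. Nusap1, which bundles spindle microtubules, was at 3.70, 0.679 and 3.32 in saline young and 8.69, 3.06 and 3.51 RPKM in saline old. The mitosis genes thus differed between the treated libraries by more than the replication members did, with group ranges of 2.90 to 4.24 and 4.39 to 5.08 on the log2 scale; the difference between the lists was not tested.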

How the data were processed

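Libraries were made from sorted HSC RNA by SMART-Seq v4 and then Nextera XT, per the labels' protocols. Trim Galore, STAR 2.5.3a and Partek, and the build mm10, are listed in the submitters' processing notes without a step for each. The authors deposited a table named as counts whose values are RPKM: they have fractions, and low genes step with gene length. FPKM would look alike. Of 46628 rows, 2 named no gene. Depth was read from those steps, and 83.9% to 87.7% of the low values fell on whole reads, with a tolerance of 0.05.

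The libraries were grouped by title, since every description ends in the same tag. Limma 3.58.1 in R 4.3.3 was run with its trend and robust options on log2(RPKM + 0.5), over all 9 libraries and 13516 genes with at least 1 RPKM in at least 3 libraries. It had 6 residual degrees of freedom, no covariate and Benjamini-Hochberg adjustment over all genes tested. The pseudocount understates changes of low genes. The code was tested on simulated data. No count test was used, and arm sizes of 3 limit the precision.

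Members and lists were chosen with earlier results of these data known. Statistics are printed for the 8 members with the smallest p in each comparison. Library values are printed for these, for the highest and lowest member of each role, and for the 2 genes with the smallest p in each pathway list. Mcm2, Tk1, Lig1, Ccnd3, Orc2, the members beside printed promoters and the marker genes given by library were named after their values were seen. Alternatives were other pseudocounts, filters and scalings, quality weights, 2-group fits, the replicate block and each library left out.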

Additional observations from a re-analysis of the deposited data

How the results depend on the processing

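Of 21 alternatives, 1 changed the number of members called. With sample quality weights 4 members passed in old against young saline, Ccnd2, Chaf1a, E2f1 and Pole, all lower in old, with log2 changes of -0.64, -1.27, -1.15 and -0.45, while the count over all genes went from 213 to 1284. All other counts of members stayed at 0, also where the count over all genes moved, from 96 to 586 with single libraries left out of the first comparison, from 0 to 39 in the second and from 57 to 163 in the third. With single libraries left out the median member log2 change ran from -0.20 to 0.06, from -0.45 to -0.13 and from -0.57 to -0.18 in the 3 comparisons. Under the other alternatives it ran from -0.06 to -0.01, from -0.38 to -0.13 and from -0.47 to -0.12. For the log2 changes of the 8 members with the smallest p in each comparison, 24 in all, the alternatives gave 500 values, of which 0 reversed and 496 kept their side of the threshold. None of the 24 passed in the main fit, so those 496 stayed uncalled. Choosing members by the smallest p in the same data favours a kept sign. With the replicate block 0 members passed in each comparison. Same-numbered libraries deviated together with correlations of -0.05 to 0.19, and not every library went best with its own number, so the numbers were not taken as pairs. Members near 1 RPKM, such as Orc1, Cdc45 and E2f2, rest on few reads in the shallower libraries.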

Other observations

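Some cell cycle genes outside the member list, chosen after their values were seen, had the same order in the treated libraries. Gmnn, which encodes the licensing inhibitor geminin, stood at 50.1, 69.9 and 88.4 RPKM in saline old and 40.7, 30.6 and 83.4 in replicates 1, 2 and 3 of BRL37344 old. Clspn, a checkpoint adaptor of the fork, was at 7.59, 11.4 and 11.6 in saline old and 4.32, 4.47 and 13.1 RPKM in BRL37344 old. Cdk1, the mitotic kinase gene and already among the mitosis genes above, was at 156, 169 and 184 in saline old and 86.0, 73.4 and 214 RPKM in BRL37344 old. In each of these 3 genes replicates 1 and 2 were below all 3 saline old libraries, and replicate 3 was not.

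The pseudogene row Pcna-ps2 held 50.7 RPKM on average over the 9 libraries, beside 97.2 for Pcna. It was at 40.6, 36.3 and 58.0 RPKM in replicates 1, 2 and 3 of BRL37344 old, the order of Pcna itself, at 74.0, 67.4 and 112 RPKM. Ccnd3-ps held 13.8 RPKM on average beside 228 for Ccnd3.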
